A study of Rattus norvegicus with 17 samples.

Results

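Matrix metalloproteinases (MMPs), the zinc proteases that cut collagens and other matrix proteins, and the tissue inhibitors of metalloproteinases (TIMPs) were followed in the Meibomian gland (MG) of rats as 10 genes, namely Mmp2, Mmp3, Mmp9, Mmp10, Mmp12, Mmp13, Mmp14, Timp1, Timp2 and Timp3. The genes were chosen by name, with earlier results of these data known. Of the 10 genes, 9 were found among the 17251 genes listed, and Timp2 was not analysed here. RNA was sequenced from the MG, the lipid-secreting gland of the eyelid margin, of female Sprague-Dawley rats aged 10 to 12 weeks. The 4 Control WT and the 5 Control P1.hMR rats were not irradiated, while the 3 UVB WT and the 5 UVB P1.hMR rats had their eyelids exposed to ultraviolet B (UVB) for 5 days. P1.hMR rats carry the human gene of the mineralocorticoid receptor (MR), NR3C2, driven by its own proximal P1 promoter, which is active in every tissue that makes MR, so the transgene was not limited to the MG. The study asked how UVB damage and MR overexpression each act on the gland. The methods describe shaving of the upper eyelids before UVB and do not describe it for the controls, so shaving and UVB cannot be told apart in these groups. They count irradiated glands by eye while each rat has 1 column of values, so each rat was taken as 1 replicate.

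MMPs are made as inactive precursors and are switched on by removal of a propeptide, by plasmin, by furin-like convertases or by other MMPs. TIMPs bind the active site of MMPs and hold them inactive, and Timp3 also inhibits ADAM and ADAMTS proteases. In irradiated skin, UVB is known to induce collagenase and stromelysin genes through the AP-1 transcription factor, a dimer of Fos and Jun proteins.

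Mmp13, Mmp12, Mmp3 and Mmp10 are neighbours in a single metalloproteinase gene cluster on rat chromosome 8. They are shown here because their promoters held both letters TGANTCA, the AP-1 motif, and TATAAA, the TATA box. Of the 10 genes, 7 had an entry in the RefSeq promoter table of build GRCr8, and those of Mmp2, Mmp9 and Mmp14 are not shown. Each sequence below is the stretch of 110 bases before the RefSeq gene start, read 5′ to 3′ on the strand of the gene, with TGANTCA and TATAAA in capitals.
Mmp13: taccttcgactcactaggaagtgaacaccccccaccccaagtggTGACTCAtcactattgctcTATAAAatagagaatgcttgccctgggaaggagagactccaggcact
Mmp12: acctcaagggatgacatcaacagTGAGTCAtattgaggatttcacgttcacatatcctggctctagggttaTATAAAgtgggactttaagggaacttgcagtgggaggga
Mmp3: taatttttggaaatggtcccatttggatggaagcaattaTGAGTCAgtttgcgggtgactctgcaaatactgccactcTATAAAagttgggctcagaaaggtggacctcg
Mmp10: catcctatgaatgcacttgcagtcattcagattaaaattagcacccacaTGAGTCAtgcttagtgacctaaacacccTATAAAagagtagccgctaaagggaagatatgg
These stretches lie at chr8:12782719-12782828 for Mmp13, chr8:12866542-12866651 for Mmp12, chr8:12925171-12925280 for Mmp3 and chr8:12974597-12974706 for Mmp10, all on the plus strand. Counted from the gene start, the first base of TGANTCA was at -66 in Mmp13, -87 in Mmp12, -71 in Mmp3 and -61 in Mmp10, and the TATAAA nearest the start began between -47 and -32. Mmp10 held 3 TATAAA matches in its 300 bases, 1 of them in the stretch printed. The 2 motifs overlapped in none of the 4 promoters. Both motifs together occurred in 1.36% of the 33469 promoters of 300 bases (250 before and 50 after the start) and in 0.757% of the 10968 promoters of genes tested here. TGANTCA alone occurred in 7.33% and TATAAA in 14.2% of all promoters, with both strands read.

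For the inhibitors, the same stretches are printed for comparison and held neither set of letters within the 300 bases.
Timp1: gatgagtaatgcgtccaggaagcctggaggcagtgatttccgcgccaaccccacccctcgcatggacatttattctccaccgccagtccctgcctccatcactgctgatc
Timp3: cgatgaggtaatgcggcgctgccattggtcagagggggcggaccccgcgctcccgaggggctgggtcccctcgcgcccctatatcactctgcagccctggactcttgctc
They lie on the minus strand at chrX:3771123-3771232 for Timp1 and at chr7:19459559-19459668 for Timp3. A match or its absence describes letters and is not a binding site or its absence.

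The values are deposited TPM, a transcript's share of the sample per length, so that levels of different genes can be set side by side, but the depth behind each value is unknown. Between 12372 and 12737 genes reached 1 TPM in each rat, and the 13105 genes that had 1 TPM or more in 3 or more rats were tested on the log2(TPM + 1) scale, which understates the change of low genes. No WT rat had NR3C2 transcripts (0 TPM), and the transgene averaged 8.16 TPM in Control P1.hMR and 6.53 TPM in UVB P1.hMR rats. The label of the tissue was checked by 13 listed meibocyte genes such as Elovl3 and Awat2, whose summed level lay between 23235 and 27390 TPM in Control WT, 21548 and 24900 TPM in Control P1.hMR, 19809 and 20793 TPM in UVB WT and 18395 and 21467 TPM in UVB P1.hMR rats. It was thus lower in all 8 UVB rats than in all 9 control rats, but the 13 genes did not fall together. Awat2 averages dropped with UVB, 11610 against 7380 TPM (Control WT, UVB WT) and 10455 against 7280 TPM (Control P1.hMR, UVB P1.hMR). Elovl3 averages climbed, 935 against 1363 TPM and 870 against 1477 TPM for the same pairs of groups. Over the 13 genes the median log2 fold change was -0.12 (WT) and -0.03 (P1.hMR). What part the summed level played in the results on the metalloproteinases was not tested. Skeletal muscle genes were also present, with a summed level between 1597 and 3732 TPM, as were hair shaft keratins, between 188 and 838 TPM. Control WT rat 1 was the lowest of its group in 7 of the 9 genes and UVB WT rat 2 in 8 of the 9, and values that moved markedly without either rat are given beside the results.

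After UVB, limma called 6 of the 9 genes higher and 1 lower in WT rats, where 7.91% of all genes tested were called, 3.92% higher and 3.98% lower. Among P1.hMR rats 6 were again higher and 1 was lower, where 10.8% of all genes tested were called, 5.05% higher and 5.71% lower. Calls required a p under 0.05 after Benjamini-Hochberg adjustment together with a log2 fold change of 0.5 or more in size, and each fold change is given below ± its standard error from limma. Called higher in both genotypes were Mmp2, Mmp3, Mmp9, Mmp13 and Timp1, as were 2.98% of all genes tested, and Timp3 was called lower in both, as were 3.04%. The median log2 fold change of the 9 genes was 0.85 (WT) and 0.81 (P1.hMR), and that of all genes tested was 0.01 and -0.02. Mmp9, Mmp10 and Mmp13 reached 1 TPM in 3 rats only once the UVB rats were counted, and had therefore to be higher there. They are part of the counts and medians above, and the median was the value of Mmp9 in WT and of Mmp10 in P1.hMR rats. Of the other 6 genes, 4 were called higher and 1 lower in WT rats, and 3 higher and 1 lower in P1.hMR rats. In bulk RNA, more cells of a type and more RNA per cell cannot be told apart.

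**Figure D1:**
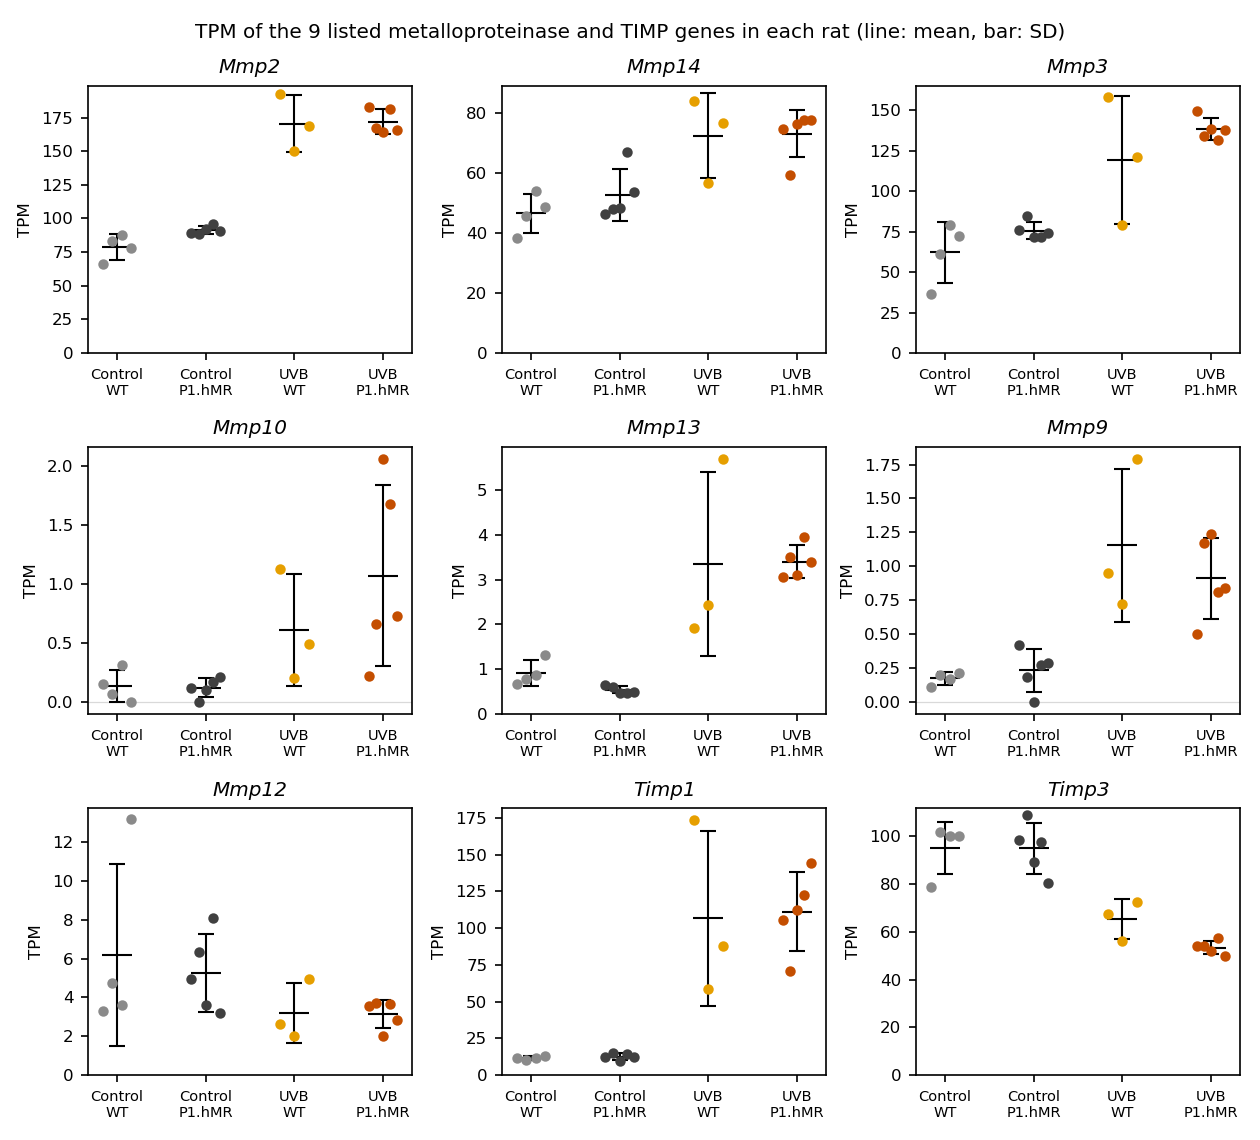
TPM (vertical axis, linear, a separate scale for each gene) of the 9 genes in each of the 17 rats by group, with the group mean as a line and the SD as a bar. Timp1 is between 9.67 and 14.9 TPM in all control rats and between 58.5 and 173 TPM in all UVB rats, while Timp3 is at most 72.5 TPM in UVB rats and at least 78.8 TPM in control rats.

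Mmp2 encodes gelatinase A, which degrades basement membrane collagen and denatured collagen. In Control WT rats 1 to 4, Mmp2 stood at 66.0, 83.6, 87.9 and 78.4 TPM, and in UVB WT rats 1 to 3 at 192, 149.9 and 169 TPM. In Control P1.hMR rats 1 to 5, it stood at 89.2, 88.1, 92.3, 95.7 and 90.5 TPM, and in UVB P1.hMR rats at 183, 167, 164, 181 and 165 TPM. No UVB rat overlapped with a control rat in either genotype. In WT, mean TPM ± SD went up from 79.0 ± 9.51 (n = 4) to 170.3 ± 21.1 (n = 3), 2.16 times the control level, a log2 fold change of 1.10 ± 0.09 (limma, adjusted p = 2.97e-06). In P1.hMR, it went up from 91.2 ± 2.97 to 172.0 ± 9.04 (n = 5 each), a log2 fold change of 0.91 ± 0.07 (limma, adjusted p = 4.60e-07).

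Mmp14 encodes the membrane-anchored MMP that activates pro-Mmp2 at the cell surface. It stood at 38.4, 45.5, 53.9 and 48.7 TPM in Control WT and at 84.0, 56.6 and 76.5 TPM in UVB WT rats, with no overlap. In P1.hMR rats, it stood at 46.3, 47.9, 48.4, 67.1 and 53.6 TPM without UVB and at 74.6, 59.2, 76.3, 77.7 and 77.7 TPM after UVB. There, Control P1.hMR rat 4 lay above UVB P1.hMR rat 2, and 4 of the 5 UVB rats lay above all controls. The log2 fold change was 0.62 ± 0.15 in WT (limma, adjusted p = 0.0080) and 0.47 ± 0.12 in P1.hMR (limma, adjusted p = 0.0060), the latter under the fold threshold and not called. Both calls sat close to that threshold: without UVB WT rat 1 the WT value was 0.50 and just under it, and without Control P1.hMR rat 4 or UVB P1.hMR rat 2 the P1.hMR value was 0.56 or 0.55 and called.

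Mmp9 encodes gelatinase B, a product of neutrophils, macrophages and injured epithelium. It was listed at 0.11, 0.20, 0.17 and 0.21 TPM in Control WT rats and at 0.95, 0.72 and 1.79 TPM in UVB WT rats. In P1.hMR rats, it was listed at 0.42, 0.18, 0, 0.27 and 0.29 TPM without UVB and at 0.50, 1.17, 1.24, 0.81 and 0.84 TPM after UVB. The groups did not overlap, but no rat exceeded 1.79 TPM, against at least 149.9 TPM of Mmp2 in every UVB rat. The log2 fold change was 0.85 ± 0.17 in WT (limma, adjusted p = 0.0028) and 0.63 ± 0.14 in P1.hMR (limma, adjusted p = 0.0022). The ratio of mean TPM, 6.69 (WT) and 3.93 (P1.hMR), shows how far the added pseudocount of 1 compresses so low a gene.

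Mmp3 and Mmp10 encode stromelysins 1 and 2, which cleave proteoglycans, laminin and fibronectin and activate other pro-MMPs. Mmp3 stood at 36.4, 61.0, 79.1 and 72.1 TPM in Control WT rats and at 158, 79.0 and 121 TPM in UVB WT rats. UVB WT rat 2 lay within the control range, just below Control WT rat 3. In Control P1.hMR rats, Mmp3 stood at 75.8, 84.7, 71.8, 71.9 and 74.0 TPM, and in UVB P1.hMR rats at 149, 134, 139, 131 and 138 TPM, with no overlap. The rise had a log2 fold change of 0.93 ± 0.21 in WT (limma, adjusted p = 0.0065) and 0.86 ± 0.18 in P1.hMR (limma, adjusted p = 0.0012). With only the 2 WT groups in the fit, the WT value kept its size but was no longer called (adjusted p = 0.0787 from limma). Without Control WT rat 1 the WT log2 fold change was 0.70, and without UVB WT rat 2 it was 1.20, called in both fits.

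Mmp10 was far lower than Mmp3, at 0.15, 0.07, 0.31 and 0 TPM in Control WT rats and at 1.13, 0.20 and 0.49 TPM in UVB WT rats, where rat 2 fell within the control range. In P1.hMR rats, it was listed at 0.12, 0, 0.10, 0.17 and 0.21 TPM without UVB and at 0.22, 0.66, 2.06, 1.68 and 0.73 TPM after UVB. These groups did not overlap, although UVB P1.hMR rat 1 exceeded the highest control by only the second decimal. Mmp10 was called in P1.hMR rats, with a log2 fold change of 0.81 ± 0.21 (limma, adjusted p = 0.0066). In WT rats the value was 0.47 ± 0.26 (limma, adjusted p = 0.203) and not called, and it was 0.25 without UVB WT rat 1 and 0.66 without UVB WT rat 2, also not called. The responses of the 2 genotypes differed by 0.34 with a 95% interval from -0.37 to 1.04, so the call in only 1 genotype does not show a difference between them.

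Mmp13, the interstitial collagenase of rodents, stood at 0.66, 0.78, 0.88 and 1.32 TPM in Control WT rats and at 1.91, 2.44 and 5.70 TPM in UVB WT rats. It stood at 0.65, 0.60, 0.48, 0.48 and 0.49 TPM in Control P1.hMR rats and at 3.05, 3.51, 3.11, 3.95 and 3.39 TPM in UVB P1.hMR rats. Every UVB rat lay above every control rat, and UVB WT rat 3 was the highest of all. The UVB P1.hMR values had an SD of 0.361 TPM (n = 5) and the UVB WT values of 2.05 TPM (n = 3), around means of 3.40 and 3.35 TPM. The log2 fold change was 1.10 ± 0.20 in WT (limma, adjusted p = 0.0016) and 1.51 ± 0.17 in P1.hMR (limma, adjusted p = 6.67e-06), and the ratio of mean TPM was 3.68 and 6.30.

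Mmp12, the macrophage metalloelastase, was the 1 member of the cluster above 1 TPM in every rat that was not called. It stood at 3.28, 4.76, 3.60 and 13.2 TPM in Control WT rats and at 2.63, 2.00 and 4.96 TPM in UVB WT rats. It stood at 4.95, 6.33, 3.62, 8.12 and 3.22 TPM in Control P1.hMR rats and at 3.54, 3.71, 2.01, 3.66 and 2.82 TPM in UVB P1.hMR rats. The groups overlapped in both genotypes, and Control WT rat 4 stood above all others. The log2 fold changes of -0.66 in WT (95% interval -1.42 to 0.11, adjusted p = 0.208 from limma) and -0.55 in P1.hMR rats (95% interval -1.18 to 0.08, adjusted p = 0.156 from limma) did not pass the test. With 1 rat left out, the WT value ran from -0.94 to -0.27, the latter without Control WT rat 4.

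Mmp12 is itself a macrophage product. Of 11 macrophage markers tested, 6 were called higher in each genotype and 0 lower, beside 3.92% (WT) and 5.05% (P1.hMR) of all genes tested called higher, among them the scavenger receptor Cd163 with log2 values of 2.55 (WT) and 2.66 (P1.hMR). Their summed level lay between 105 and 187 TPM in Control WT, 107 and 183 TPM in Control P1.hMR, 162 and 272 TPM in UVB WT and 214 and 300 TPM in UVB P1.hMR rats. The median log2 fold change of these markers was 0.84 (WT) and 0.93 (P1.hMR). Their part in the results on the metalloproteinases was not tested.

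**Figure D2:**
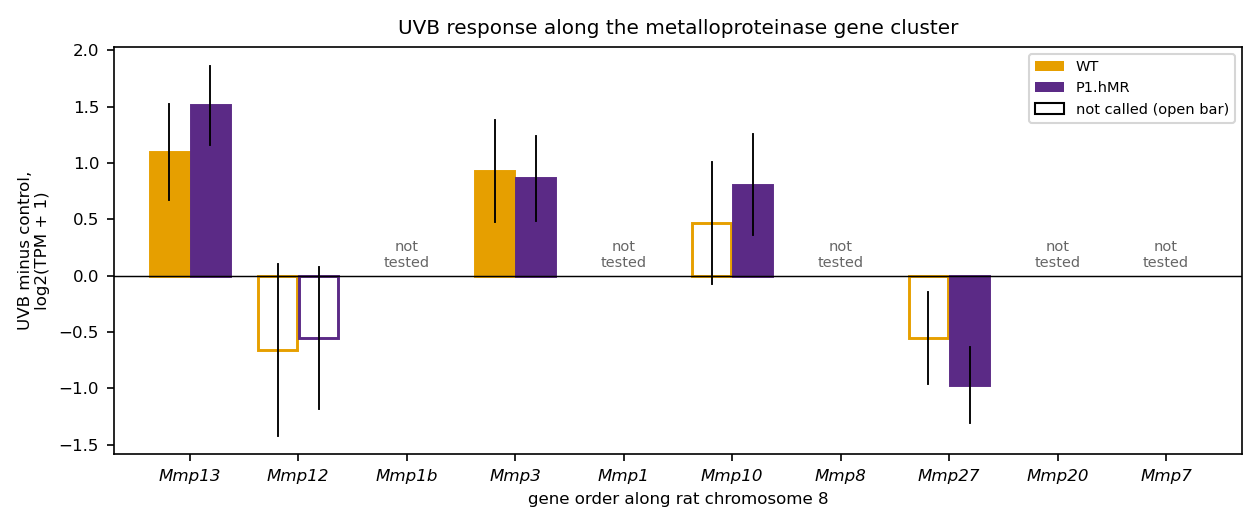
Log2 fold change of UVB against control (vertical axis) with 95% intervals as black lines in WT and P1.hMR rats for the genes of the metalloproteinase cluster in their order along rat chromosome 8. Mmp13 and Mmp3 rose in both genotypes, Mmp10 was called in P1.hMR rats, Mmp12 was not called, and Mmp27 had -0.55 in WT and -0.97 in P1.hMR rats. Open bars were not called.

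Along the cluster, the order on chromosome 8 was Mmp13, Mmp12, Mmp1b, Mmp3, Mmp1, Mmp10, Mmp8, Mmp27, Mmp20 and Mmp7, taken from the RefSeq annotation. Of these 10 neighbours, 5 passed the filter on low values. The plot of the cluster shows values of both signs between adjacent genes. Mmp27, whose protein is little characterized, had 3.65, 5.66, 6.52 and 5.07 TPM in Control WT rats and 4.58, 2.81 and 2.43 TPM in UVB WT rats. In P1.hMR rats it had 6.64, 7.17, 5.07, 6.56 and 6.73 TPM without UVB and 2.92, 3.62, 2.41, 3.40 and 1.82 TPM after UVB. The P1.hMR groups did not overlap, with a log2 fold change of -0.97 ± 0.16 (limma, adjusted p = 0.00022), while the WT value of -0.55 was not called (adjusted p = 0.0517 from limma). The TGANTCA and TATAAA letters of the printed promoters were present in Mmp12, which was not called, as well as in the neighbours that rose, and were not in the 300 bases of Mmp27.

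Timp1, the soluble inhibitor that binds pro-Mmp9 and most active MMPs, had the largest fold change of the 9 genes in both genotypes on the log2(TPM + 1) scale. As ratios of mean TPM, Timp1 had 9.19 (WT) and 8.82 (P1.hMR), and Mmp10 had 4.58 and 8.92. It stood at 11.4, 10.5, 11.3 and 13.2 TPM in Control WT rats and at 173, 58.5 and 87.7 TPM in UVB WT rats. It stood at 12.1, 14.9, 9.67, 14.4 and 12.0 TPM in Control P1.hMR rats and at 105, 71.0, 112, 123 and 144 TPM in UVB P1.hMR rats. Every UVB rat exceeded every control rat by a wide margin, and UVB WT rat 1 had almost 3 times the level of UVB WT rat 2. In WT, mean TPM ± SD went up from 11.6 ± 1.15 (n = 4) to 106.6 ± 59.8 (n = 3), a log2 fold change of 2.95 ± 0.27 (limma, adjusted p = 8.03e-06). In P1.hMR, it went up from 12.6 ± 2.10 to 111.1 ± 26.8 (n = 5 each), a log2 fold change of 3.02 ± 0.23 (limma, adjusted p = 2.43e-07). Leaving out any 1 rat kept the WT value between 2.53 and 3.31 and the P1.hMR value between 2.92 and 3.17.

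Timp3, which is bound to the matrix, was the 1 gene of the 9 that was called lower. It stood at 78.8, 101.6, 100.3 and 100.1 TPM in Control WT rats and at 67.6, 56.0 and 72.5 TPM in UVB WT rats. It stood at 98.6, 108.9, 89.1, 97.8 and 80.3 TPM in Control P1.hMR rats and at 54.0, 53.8, 51.8, 57.4 and 49.7 TPM in UVB P1.hMR rats. No UVB rat reached the lowest control of its genotype. The log2 fold change was -0.54 ± 0.11 in WT (limma, adjusted p = 0.0026) and -0.81 ± 0.09 in P1.hMR (limma, adjusted p = 5.57e-06). The WT value was close to the fold threshold, and without UVB WT rat 2 it was -0.43 and no longer called.

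Among the 9 genes, 6 showed no overlap between UVB and control rats in WT, beside 26.6% of all genes tested, and 7 in P1.hMR rats, beside 27.2%. Without Mmp9, Mmp10 and Mmp13, which had to be higher after UVB, the count was 4 of 6 in each genotype. Adjacent genes in the order of mean levels often overlapped. In Control WT rats the order was Timp3, Mmp2, Mmp3, Mmp14, Timp1, Mmp12, Mmp13, Mmp9 and Mmp10, in which the ranges of neighbours overlapped from Timp3 through Mmp14, between Timp1 and Mmp12 and between Mmp9 and Mmp10. The order of the means was the same in Control P1.hMR rats. After UVB, Mmp2 stood first in both genotypes, ahead of Mmp3, Timp1, Mmp14 and Timp3 in that order. In UVB WT rats each of the first 4 overlapped with the next, whereas in UVB P1.hMR rats Mmp2 lay apart from Mmp3, and Mmp14 apart from Timp3.

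The shares of Timp1 and Timp3 in their sum changed with UVB. Timp1 made up 10.9 ± 1.46% of the summed TPM of Timp1 and Timp3 in Control WT (SD, n = 4) and 11.7 ± 1.34% in Control P1.hMR rats (SD, n = 5). After UVB it made up 59.3 ± 11.2% in WT (SD, n = 3) and 66.8 ± 6.34% in P1.hMR rats (SD, n = 5), and was above Timp3 in each of the 8 UVB rats. The smallest margin was in UVB WT rat 2, where Timp1 made up 51.1%.

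The summed TPM of the 7 MMP genes was 195 ± 35.7 in Control WT, 226 ± 11.1 in Control P1.hMR, 370.3 ± 75.3 in UVB WT and 392 ± 16.4 in UVB P1.hMR rats. Mmp2, Mmp3 and Mmp14 made up between 93.1% and 98.5% of that sum in each rat. The sum of Timp1 and Timp3 was 107 ± 11.1 TPM in Control WT, 108 ± 12.3 TPM in Control P1.hMR, 172 ± 64.1 TPM in UVB WT and 164 ± 26.1 TPM in UVB P1.hMR rats. The ratio of both sums was 1.82 ± 0.180, 2.12 ± 0.220, 2.25 ± 0.371 and 2.43 ± 0.367 in the same order. In WT rats, UVB WT rat 1 had a ratio of 1.83, within the control range of 1.61 to 2.02, so this ratio did not separate UVB from control rats. Timp2, which was not analysed here, and Timp4 are not part of these sums, so this is not the ratio over the whole family. These are shares of transcripts and not of active protease.

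**Figure D3:**
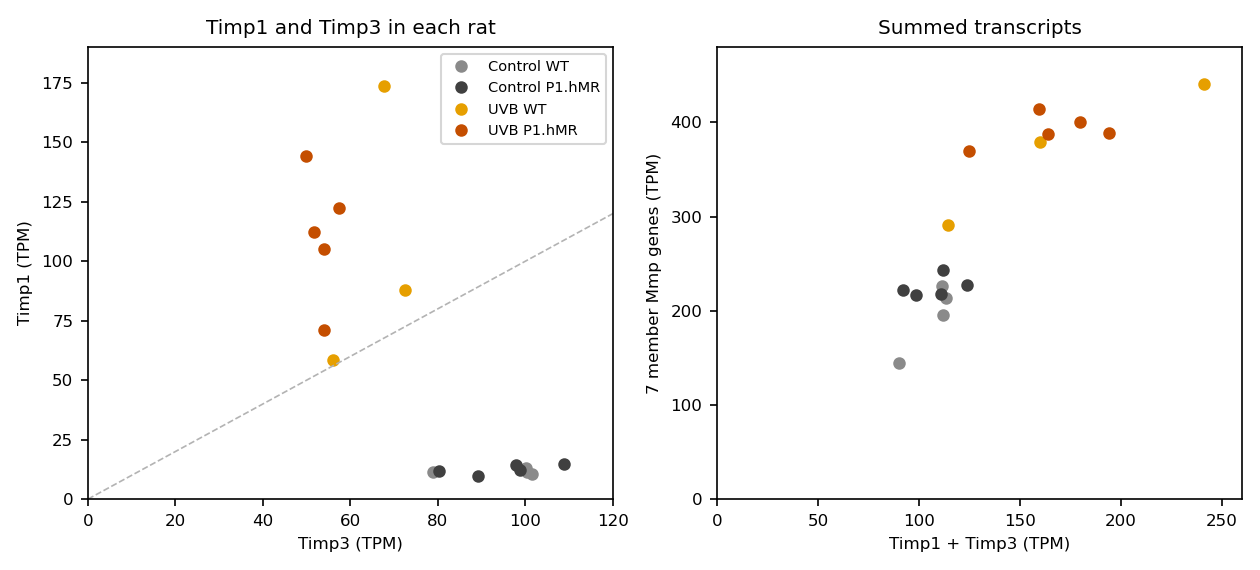
Left, Timp1 against Timp3 in each rat (both axes in TPM), with a dashed line where both are equal. Right, the summed TPM of the 7 MMP genes against that of Timp1 and Timp3 in each rat. Control rats sit at the lower right of the left panel, with Timp1 under 15 TPM, and all 8 UVB rats lie above the line; in the right panel all UVB rats exceed 290 TPM of summed MMPs and all control rats lie under 244 TPM.

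The effect of MR overexpression was read by comparing P1.hMR with WT rats under each condition. Without UVB, 0 of the 9 genes were called, beside 0.00763% of all genes tested, which was the transgene NR3C2 alone. Of the 9, 1 had an unadjusted p under 0.05 in limma, against 528 of the 13105 genes tested. That gene was Mmp2, for which all 5 Control P1.hMR rats (88.1 to 95.7 TPM) lay above all 4 Control WT rats (66.0 to 87.9 TPM), with a log2 difference of 0.21 (95% interval 0.05 to 0.37, adjusted p = 0.998 from limma). Without Control WT rat 1 it was 0.13. Mmp13 showed the reverse arrangement, with all 5 Control P1.hMR rats (0.48 to 0.65 TPM) below all Control WT rats (0.66 to 1.32 TPM), a log2 difference of -0.30 (95% interval -0.68 to 0.07). Such separation of the 2 control groups was found for 1.03% of all genes tested. For the other 7 genes the control groups overlapped, with differences from -0.08 for Mmp12 to 0.33 for Mmp3. The Mmp3 value was 0.10 without Control WT rat 1, and that of Mmp12 was 0.31 without Control WT rat 4.

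Under UVB, 0 of the 9 genes were called between P1.hMR and WT rats, beside 0.0229% of all genes tested, and 1 had an unadjusted p under 0.05 in limma, against 1348 of all genes tested. That gene was Timp3, at 53.3 ± 2.86 TPM in UVB P1.hMR (SD, n = 5) and 65.4 ± 8.43 TPM in UVB WT rats (SD, n = 3). UVB P1.hMR rat 4 lay above UVB WT rat 2, and the other 4 UVB P1.hMR rats lay below all UVB WT rats. None of the 9 genes separated these 2 groups without overlap, as 5.87% of all genes tested did. The log2 difference was -0.28 (95% interval -0.50 to -0.07, adjusted p = 0.349 from limma). For Timp1 it was 0.17 (95% interval -0.38 to 0.72), 0.59 without UVB WT rat 1 and -0.19 without UVB WT rat 2, and for Mmp2, Mmp12 and Mmp14 it was 0.02, 0.03 and 0.03. The intervals of the 9 genes reached from -0.70 (Mmp12) to 0.84 (Mmp10) in all. Those of Mmp2 (-0.16 to 0.20) and Mmp14 (-0.27 to 0.32) were narrower. The size of a change between the genotypes that remains possible thus differs from gene to gene.

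The interaction of genotype and UVB tests whether the response differed between WT and P1.hMR rats. For it, limma called 0 of the 9 genes and 0 of all genes tested, with 0 of the 9 and 907 of all genes tested at an unadjusted p under 0.05. The interaction values ran from -0.28 for Timp3 (95% interval -0.57 to 0.01) to 0.41 for Mmp13 (95% interval -0.14 to 0.97), with adjusted p between 0.734 and 0.986 from limma. The Mmp13 value was 0.17 without UVB WT rat 1 and 0.77 without UVB WT rat 3. The UVB WT group held 3 rats, which limits what a difference between responses could show.

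**Figure D4:**
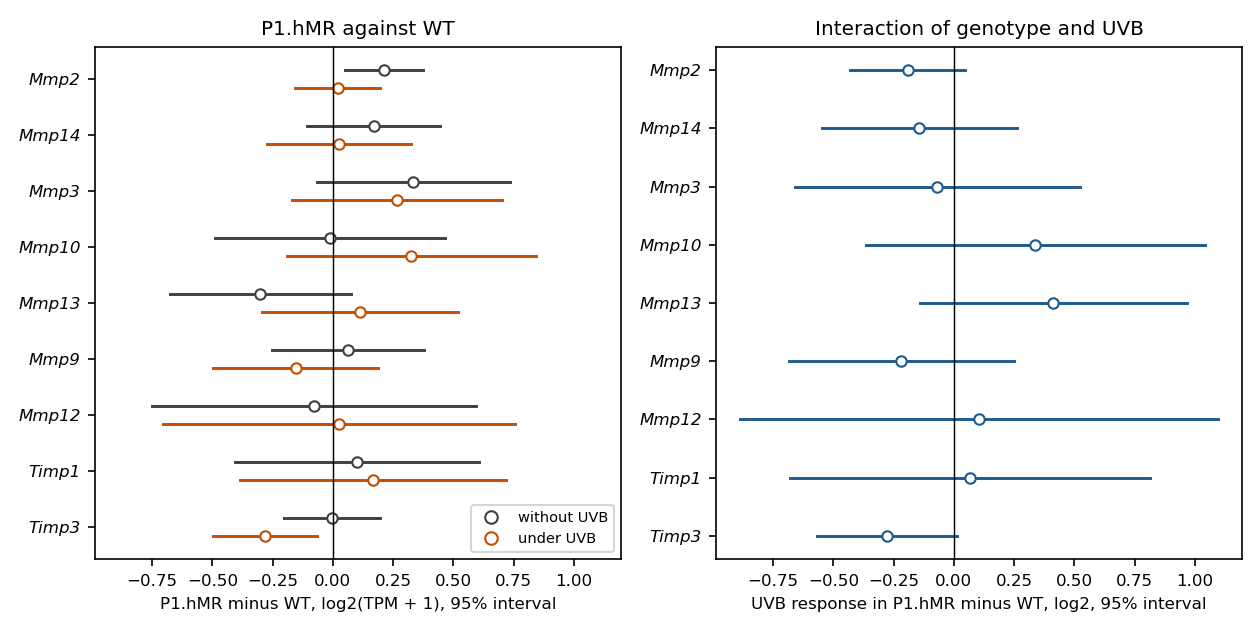
Log2 differences between P1.hMR and WT rats without and under UVB (left panel) and the difference between the UVB responses of both genotypes (right panel) for the 9 genes, with 95% intervals as lines. Open points were not called, which applies to all 27 points, and the largest absolute value is the 0.41 of Mmp13 in the right panel.

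The rest of the family was examined in the same fits. Beside each count of calls in this list and the lists below stand the shares of all genes tested. In WT rats 3.92% were called higher and 3.98% lower, and in P1.hMR rats 5.05% and 5.71%. From a list of 16 further MMP and TIMP genes, 14 were found in the table and 9 passed the filter, of which 2 were called higher in WT rats, and 1 higher and 1 lower in P1.hMR rats. Their median log2 fold change was 0.05 (WT) and -0.05 (P1.hMR). Mmp28, epilysin of keratinocytes, rose from 2.62 to 5.73 TPM on average in WT (log2 fold change 0.90, adjusted p = 0.0025 from limma) and from 3.28 to 5.37 TPM in P1.hMR rats (0.56, adjusted p = 0.0064 from limma), with no overlap. Mmp19, a basement membrane protease, was called in WT rats with 0.68 and stood under the fold threshold in P1.hMR rats with 0.47. Mmp17 had -0.32 and -0.45 and Timp4 had 0.31 and 0.02, with no call. Mmp8, the collagenase of neutrophils, did not exceed 0.37 TPM in any rat.

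**Figure D5:**
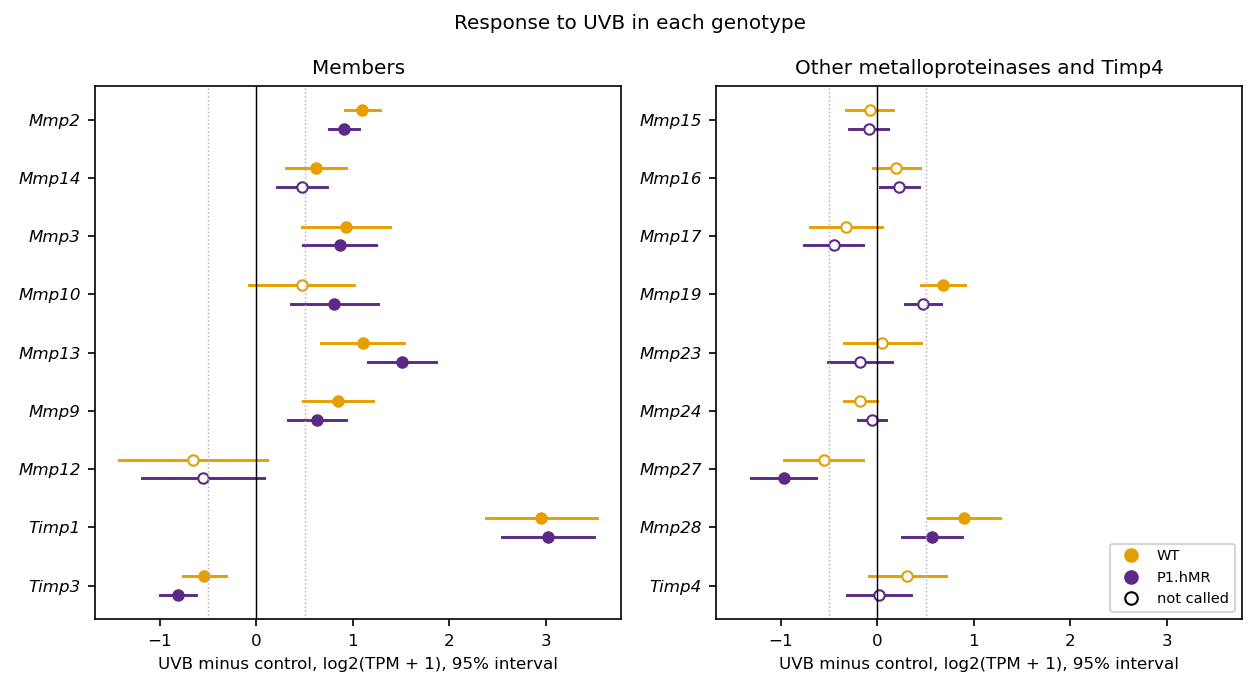
Log2 fold change of UVB against control with 95% intervals in WT and P1.hMR rats for the 9 genes (left panel) and for the 9 other genes of the family that were tested (right panel). Dotted lines mark the fold threshold of 0.5 in either direction. Timp1 lies near 3 in both genotypes, and filled points were called.

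Among 18 related ADAM and ADAMTS proteases, some of which Timp3 inhibits, 2 were called higher and 1 lower in each genotype. Adamts4 and Adamts7, proteases of cartilage-type proteoglycans and matrix glycoproteins, rose with log2 values of 0.78 and 0.66 (WT) and 0.89 and 0.71 (P1.hMR), and Adamts17 fell with -0.51 and -0.53. Control rats had at most 0.92 TPM of Adamts4 and 0.95 TPM of Adamts7. Both thus passed the filter through UVB rats alone and had to be higher there. UVB rats had at most 0.79 TPM of Adamts17, which passed through control rats alone and had to be lower after UVB. No other gene of this list was called. The median over these 18 genes was 0.24 (WT) and 0.17 (P1.hMR).

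Of 19 genes that activate, bind or clear MMPs, 8 were called higher and 1 lower in WT, and 9 higher and 0 lower in P1.hMR rats, with medians of 0.35 and 0.41. Lcn2, which forms a complex with Mmp9, had log2 values of 3.54 (WT) and 2.65 (P1.hMR), with standard errors of 0.84 and 0.70. It ran from 0.35 to 30.4 TPM in UVB P1.hMR rats and overlapped with Control P1.hMR rats (0.28 to 2.80 TPM). In WT rats it ran from 0 to 0.29 TPM without UVB and from 4.40 to 28.4 TPM after UVB. Serpinb2, an inhibitor of plasminogen activators, had 1.27 and 1.64, and the convertase Pcsk5 had 1.07 and 0.98. Plg, the source of plasmin, was below the filter.

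Of 22 matrix and basement membrane genes, which encode the substrates, 6 were called higher and 1 lower in WT rats. In P1.hMR rats 5 were called higher and 1 lower, with medians of 0.34 (WT) and 0.21 (P1.hMR). Over all genes tested, 3.92% (WT) and 5.05% (P1.hMR) were called higher, and 3.98% and 5.71% lower. The collagen-binding proteoglycans Lum and Dcn rose with log2 values of 1.89 and 0.93 (WT) and 1.88 and 0.88 (P1.hMR), and the basement membrane collagen Col4a1 rose with 0.91 and 0.85. Lum and Dcn also belong to the fibroblast markers, of which 5 of 9 were called higher and 1 lower in WT, and 4 higher and 2 lower in P1.hMR rats (medians 0.61 and 0.50). Pi16, the fibroblast marker called lower in both genotypes, fell with log2 values of -0.68 (WT) and -0.88 (P1.hMR). The summed level of the fibroblast markers lay between 756 and 1140 TPM in Control WT, 1033 and 1224 TPM in Control P1.hMR, 968 and 1589 TPM in UVB WT and 1134 and 1449 TPM in UVB P1.hMR rats. Control WT rat 1 and UVB WT rat 2, the rats lowest in most of the 9 genes, also had the lowest fibroblast and macrophage sums of their groups. The part of these cells in the results was not tested.

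Of 16 AP-1 genes and cytokine inducers of MMPs, 3 were called higher in WT, and 6 higher and 1 lower in P1.hMR rats, with medians of 0.27 and 0.24. Fosl1, a Fos-family partner of Jun in AP-1, rose with log2 values of 0.70 (WT) and 0.83 (P1.hMR). The receptors Osmr and Il1r1, for oncostatin M and interleukin 1, rose with 0.56 and 0.56 (WT) and 0.81 and 0.67 (P1.hMR). Il6, Osm and Il17a were below the filter.

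The other cell types of the eyelid moved in both directions. Their counts stand beside 3.92% (WT) and 5.05% (P1.hMR) of all genes tested called higher, and 3.98% and 5.71% called lower. Of 4 neutrophil markers tested, 2 were called higher in each genotype and 1 lower in WT rats (medians 0.62 and 0.60). Those called higher were Csf3r, with log2 values of 0.88 (WT) and 1.22 (P1.hMR), and Fcnb, with 0.70 and 0.74. Neither had 1 TPM in 3 rats until the UVB rats were counted, so the filter itself favoured a rise of both. The summed level of the 9 listed neutrophil markers overlapped between UVB and control rats in each genotype. It did not overlap between the 3 UVB WT (6.74 to 11.4 TPM) and the 5 UVB P1.hMR rats (12.0 to 17.6 TPM). Of all genes tested, 5.87% did not overlap between these UVB groups, and the sum itself was not tested. Of the listed markers below the filter, Elane was at 0 TPM in all Control WT, Control P1.hMR and UVB WT rats, and Ltf in all UVB P1.hMR rats. Of 6 endothelial markers 1 was called higher in each genotype (medians 0.38 and 0.18). Of 8 skeletal muscle markers 2 were called lower in each genotype (medians -0.35 and -0.29), and of 10 hair shaft keratins 5 were called lower in WT and 3 in P1.hMR rats (medians -1.02 and -0.60). Of 7 keratinocyte markers 1 was called lower in each genotype (medians -0.01 and -0.08). Of 13 meibocyte markers 2 were called higher and 1 lower in WT, and 1 higher and 2 lower in P1.hMR rats (medians -0.12 and -0.03). With hair and muscle genes left out and TPM rescaled over the rest, the 9 genes kept their directions and calls. No gene of any of these lists was called between genotypes or in the interaction.

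For each of the 6 genes called in both genotypes, the tested genes outside the family with the most similar profile were sought over the 17 rats, by the root mean square difference in log2(TPM + 1) after each gene was centred on its own mean. Mmp2 was closest to Lox (0.11), the enzyme that crosslinks collagen, Cenpe (0.14) and Col4a1 (0.14). Mmp3 was closest to Dcn (0.15), Lox (0.19) and Fcgr1a (0.22), an immunoglobulin receptor of macrophages. The nearest to Mmp9 were AABR07062138.2 (0.15), Shc2 (0.17) and Fosl1 (0.18). Mmp13 was nearest to Pla2g4f (0.22), Dnase1l3 (0.23) and Tpsab1 (0.25), a mast cell tryptase. Timp1 was nearest to Prg4 (0.31), the lubricant proteoglycan lubricin, Nppb (0.40) and Cd163 (0.42). Timp3 was nearest to Inf2 (0.10), Sema3c (0.12) and Pik3c2g (0.13). These distances describe profiles that all hold the step between control and UVB rats, and they carry no test.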

How the data were processed

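MG transcriptomes of 17 rats were analysed, with 1 column per rat and groups taken from the labels. The authors deposited TPM for 17251 genes, written with decimal commas, on genome rn7. The paper's methods name STAR and RSEM, whereas the submitters' processing notes name FastQC, Trimmomatic, DRAGEN and Picard, and which made the table is not settled here. TPM keeps no depth, so precision comes from the spread between rats. The study describes the WT animals as littermates of the transgenic rats, and which rats shared a litter is not given in the sources used here.

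On the log2(TPM + 1) scale, the 13105 genes with 1 TPM or more in 3 or more rats were fitted in R 4.3.3 with limma 3.58.1, with a mean per group over all 17 rats and a variance trend. Tests were two-sided, with Benjamini-Hochberg adjustment over all genes tested. The thresholds follow the paper, whose DESeq2 test was not run because it needs counts. The model was tested on simulated data. Intervals are 95% intervals of limma.

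The genes and lists were chosen with earlier results of these data known. Named were the 10 genes, tested relatives of the family, of each other list up to 3 genes with the largest mean rise or fall called alike in both genotypes, and for likeness the 3 nearest genes. Genes said to be below the filter or at 0 were named after their values were seen. Python 3.11.15 read the promoters, and motifs were searched on both strands. Alternatives were a pseudocount of 0.1, no filter, a mean of at least 5 TPM, quantile and median-of-ratios scaling, hair and muscle genes left out, only the groups compared, no trend, sample weights, a replicate block, other fold thresholds, and each rat left out.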

Additional observations from a re-analysis of the deposited data

Results flagged for a closer look

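In each group of 4 or 5 rats, the highest and the lowest value of each of the 9 genes were examined on the log2(TPM + 1) scale for a gap to the nearest other rat that was large against the whole range of the group (Dixon's test). This gave 27 groups, in which chance flags about 1 in 20. Timp3 stood out in the Control WT rats, where rat 1 had 78.8 TPM and the other 3 rats between 100.1 and 101.6 TPM, a gap of 0.94 of the range on that scale. Mmp14 stood out in the UVB P1.hMR rats, where rat 2 had 59.2 TPM and the other 4 rats between 74.6 and 77.7 TPM, a gap of 0.851 of the range on that scale. Without UVB P1.hMR rat 2, Mmp14 passed the fold threshold in P1.hMR rats, with a log2 fold change of 0.55.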

How the results depend on the processing

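Of 172 log2 fold changes after UVB recomputed for the 9 genes under other settings, 170 kept direction and side of the threshold, as did 302 of 306 with a rat left out, and 0 reversed. At a fold threshold of 1 on the log2 scale, 3 genes were called in WT and 2 in P1.hMR rats in place of 7 and 7, and with a mean of at least 5 TPM, 4 were called in P1.hMR rats, where fewer of the genes were tested. With a rat left out, 6 to 7 were called in WT and 7 to 8 in P1.hMR rats. Mmp14 was called in P1.hMR rats with sample weights (0.52). A pseudocount of 0.1 raised low genes, Mmp9 to 2.13 and 1.74, Mmp10 to 1.56 and 2.21 and Mmp13 to 1.66 and 2.45 in WT and P1.hMR rats. Between genotypes 0 were called under every setting. The lowest difference without UVB moved from -0.30 (Mmp13) to -0.63 with a pseudocount of 0.1 and to -0.0036 (Timp3) with a mean of at least 5 TPM, which leaves Mmp13 out. With a rat left out, the extremes ran from -0.36 to -0.20 and from 0.13 to 0.47 without UVB, and from -0.39 to -0.20 and from 0.14 to 0.59 under UVB. Rats with the same replicate number did not deviate together (median correlation -0.0051 over 22 pairs, range -0.19 to 0.24), so the number is only a name, and the replicate block left 7 genes called in each genotype and 0 in the other comparisons. TPM gives no depth, which leaves genes under 1 TPM without a counting error.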
